A study of Sus scrofa with 8 samples.

Results

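The 8 genes RUNX2, SP7, ALPL, SPP1, IBSP, BGLAP, TNFRSF11B and CREB5, which mark or regulate the osteoblast lineage, were followed in synovium-derived mesenchymal stem cells (SMSCs) of the pig. Every probe set that the platform annotation assigns to one of these symbols was taken, which gave 18 of the 47722 probe sets tested: 5 for CREB5, 3 for RUNX2, 2 each for SP7, SPP1, IBSP and TNFRSF11B, and 1 each for ALPL and BGLAP. Cells had been grown from the stifle joints of Angeln Saddleback (AS) and German Landrace (DL) piglets, 3 males of each breed aged 59 days. The source was either the adipose synovium over the infrapatellar fat pad (FP) or the fibrous synovium of capsule and suprapatellar bursa (FS). RNA from undifferentiated cell pools at passage 3 was hybridised to the Porcine Snowball Array, 2 arrays for each of the groups AS-FP, AS-FS, DL-FP and DL-FS. All 4 groups were cultured in growth medium, and none of the arrays measured cells after osteogenic induction. The arrays of a group are numbered 1 and 2 in the labels, which do not tie them to separate animals or cultures, so p-values reflect how far the arrays of a group lay apart, and this spread may be technical. Because these were cell cultures measured in bulk, fewer cells of a type and less RNA per cell cannot be told apart.

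Osteoblasts arise from mesenchymal progenitors. RUNX2, a Runt domain transcription factor, commits progenitors to the lineage, and SP7 (osterix), a zinc finger factor, acts after it. Maturing osteoblasts then make alkaline phosphatase (ALPL), which breaks down the mineralization inhibitor pyrophosphate, and the matrix proteins osteopontin (SPP1), bone sialoprotein (IBSP) and osteocalcin (BGLAP). Osteoprotegerin (TNFRSF11B) is a secreted decoy receptor that keeps RANK ligand from driving osteoclast formation. CREB5 is a basic leucine zipper factor that binds cyclic AMP response elements and is not restricted to bone cells. Mesenchymal stem cells can take the osteoblast route on induction, and RUNX2 is known to be present in many of them before any bone matrix is made.

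All values are RMA signals (robust multichip average) on the log2 scale, so that 1 unit is a doubling. Every test compared arrays within a probe set or within the mean of a gene's probe sets. Levels of different probe sets were set beside each other to choose the brightest, to rank by mean signal and to sum marker genes. Such a sum depends most on its brightest genes. The signals were read against 69 background probe sets on the same arrays, whose median was 2.66 to 2.81 and whose 95th percentile was 7.20 to 7.61. Of the 18 probe sets, 2 were above the 95th percentile on all 8 arrays, the brightest of CREB5 and of RUNX2, against 12.3% of all probe sets tested. Above the median of the background on all 8 arrays were 12 of 18, with at least 1 for each gene, against 71.6% of all. A further 4 exceeded that median on some arrays, and 2 on no array, 1 each of RUNX2 and TNFRSF11B. The background signal itself depended on base composition. Its mean was 1.21 for background probe sets with 4 G or C bases in their label, 2.72 for those with 14 and 7.44 for those with 22. The base composition of the gene probe sets was not analysed here, so 95th percentile and median are given as a strict and a lenient limit.

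**Figure D1:**
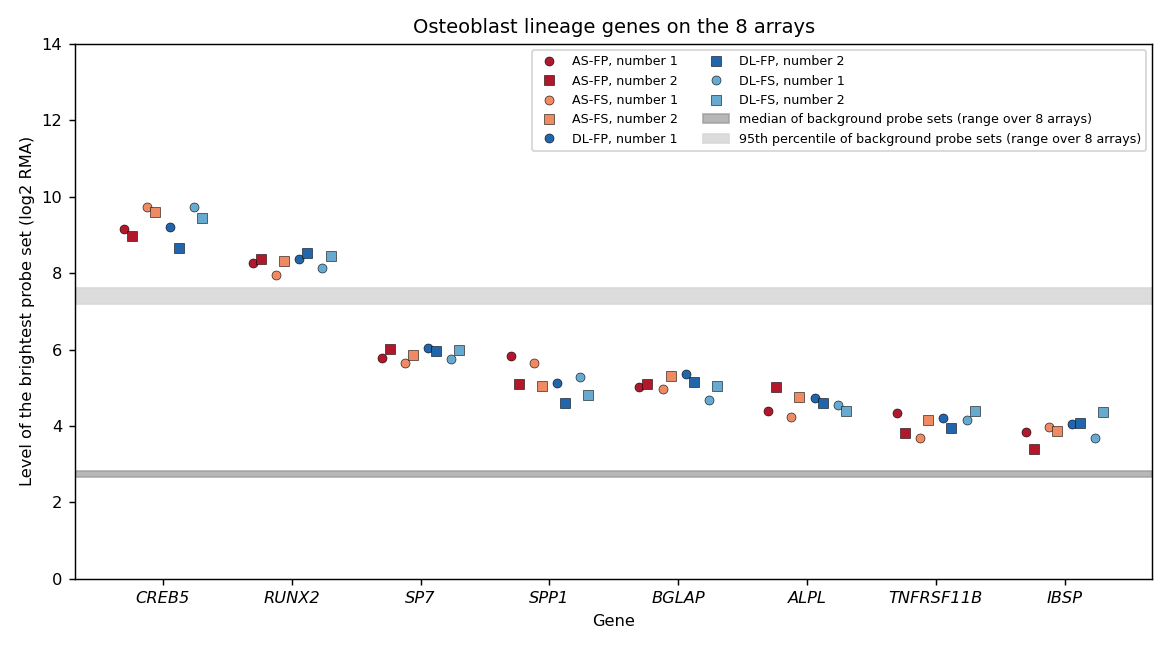
Level of the brightest probe set of each gene on the 8 arrays (log2 RMA, vertical axis), with AS-FP, AS-FS, DL-FP and DL-FS from left to right within a gene. Circles are number 1, squares number 2, and the grey bands are the range over arrays of the background median (2.66 to 2.81) and 95th percentile (7.20 to 7.61). CREB5 and RUNX2 lie above the upper band on every array, and the other 6 genes lie between the bands.

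RUNX2 was present at a nearly even level in all 4 groups. Its brightest probe set, SNOWBALL_010091_st, measured 8.27 and 8.37 in AS-FP, 7.96 and 8.31 in AS-FS, 8.37 and 8.52 in DL-FP, and 8.14 and 8.46 in DL-FS. It stood at the 91.7th percentile of all probe sets by mean signal and was above the 95th percentile of the background on every array. By mean, the groups ran DL-FP 8.45 ± 0.11, AS-FP 8.32 ± 0.07, DL-FS 8.30 ± 0.23 and AS-FS 8.14 ± 0.24 (SD, n = 2 each), and each neighbouring pair overlapped. The FP cells exceeded the FS cells of the same breed and number in 4 of 4 pairs, by 0.06 to 0.30. The AS cells were below the DL cells of the same tissue and number, also in 4 of 4 pairs, by 0.10 to 0.18. How many of all probe sets have 4 pairs of the same sign is not given here. Averaged over breeds the FP minus FS difference was 0.17 (95% interval -0.09 to 0.43), with an adjusted p of 0.9998 in limma. Between breeds it was -0.15 for AS minus DL (-0.41 to 0.11, adjusted p = 0.81). The other 2 probe sets of the gene were dimmer, SNOWBALL_047383_s_st at 4.24 to 4.79 and SNOWBALL_047390_st at 1.80 to 2.11, the last below the background median throughout.

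SP7 showed little spread. On SNOWBALL_007027_st it gave 5.78 and 6.03 in AS-FP, 5.65 and 5.87 in AS-FS, 6.03 and 5.96 in DL-FP, and 5.75 and 6.00 in DL-FS. These signals were above the background median but below its 95th percentile on all 8 arrays. Only AS-FS and DL-FP did not overlap, with AS-FS lower, and the share of all probe sets with groups so apart is not given here. The difference was 0.13 for FP minus FS (95% interval -0.13 to 0.40) and -0.10 for AS minus DL (-0.37 to 0.16), neither past the threshold. The second probe set, SNOWBALL_031143_st, lay at 2.05 to 2.94 and exceeded the background median on 1 array only, number 2 of AS-FS. Signals within the range of the background do not settle whether SP7 was expressed.

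CREB5 was the member with the largest spread between FP and FS cells. On 3 of its 5 probe sets, its signal was lower in FP than in FS cells in 4 of 4 pairs of arrays of the same breed and number. How many of all probe sets have 4 such pairs is not given here. The brightest CREB5 probe set, SNOWBALL_019837_st, measured 9.15 and 8.97 in AS-FP, 9.75 and 9.61 in AS-FS, 9.22 and 8.66 in DL-FP, and 9.73 and 9.44 in DL-FS. The highest FP array (9.22) was below the lowest FS array (9.44), so the tissues did not overlap, while the breeds did. Groups not overlapping with FP lower were found for 1.4% of all probe sets and for 2 of the 18 here. A second probe set, SNOWBALL_044233_st, gave 6.58 and 6.26 in AS-FP, 7.28 and 7.33 in AS-FS, 6.76 and 6.31 in DL-FP, and 7.19 and 6.99 in DL-FS. Again every FP array was below every FS array. On the third, SNOWBALL_032439_st, the values were 5.12 and 4.09 in AS-FP, 6.17 and 5.28 in AS-FS, 5.36 and 4.76 in DL-FP, and 6.37 and 5.24 in DL-FS. Here number 1 lay above number 2 by 0.61 to 1.13 in each of the 4 groups, and FP and FS overlapped across numbers but not within them.

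Set against FS, the FP cells had 0.65 of the CREB5 signal on the brightest probe set, a difference of -0.63 (SE 0.14, 95% interval -0.94 to -0.32). On the second it was -0.72 (SE 0.13, interval -1.02 to -0.42), and on the third -0.93 (SE 0.34, interval -1.71 to -0.16). With p-values adjusted over all 47722 probe sets, none passed the threshold of 0.1 in limma (adjusted p = 0.22, 0.13 and 0.83 in that order). In this fit 0.264% of all probe sets were called, and 0 of the 18. At an unadjusted p under 0.05 there were 3 of the 18, these same 3, beside 2433 of all 47722 probe sets. Same-numbered arrays deviated together in this series, so the fit was repeated with the replicate number as a block. All 3 were then called, with adjusted p-values of 0.015, 0.021 and 0.016 in the same order, where the block raised the share called to 0.987% of all probe sets, 0.455% with FP lower. The 3 probe sets report 1 gene and are not independent observations.

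With the block in place, leaving out any single array kept the brightest and the third probe set of CREB5 called in 8 of 8 fits. The second was called in 6 of 8, and lost the call without number 2 of AS-FP and without number 2 of DL-FP, where its adjusted p reached 0.12. Without the block, the FP minus FS difference of the brightest probe set ran from -0.77 to -0.49 as arrays were left out, and none of those fits called it. The remaining probe sets, SNOWBALL_045218_st at 3.59 to 3.92 and SNOWBALL_039410_st at 2.60 to 3.37, were near the background median and showed no tissue difference (-0.02, interval -0.34 to 0.30, and 0.02, interval -0.41 to 0.45). The 5 CREB5 probe sets therefore did not report the same size of difference, and which transcripts each one reads was not analysed here.

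Within breeds the CREB5 difference had the same sign. In AS it was -0.62 on the brightest probe set (95% interval -1.05 to -0.18), -0.88 on the second (-1.30 to -0.46) and -1.12 on the third (-2.22 to -0.02). In DL it was -0.65 (-1.08 to -0.21), -0.55 (-0.98 to -0.13) and -0.75 (-1.84 to 0.35). No member was called within a breed without the block, against 0.0545% of all probe sets in AS and 0.044% in DL. With the block 2 were called in AS, the second and the third probe set of CREB5 (adjusted p = 0.060 and 0.052, 0.495% of all called), and 1 in DL, the brightest (adjusted p = 0.095, 0.434% of all called). Whether the tissue difference depended on breed was tested as an interaction. For the brightest probe set the difference between breeds was 0.03 (interval -0.59 to 0.65), and no probe set of the array was called, with or without the block. Between breeds CREB5 differed by 0.10 on the brightest probe set (AS minus DL, interval -0.21 to 0.41).

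**Figure D2:**
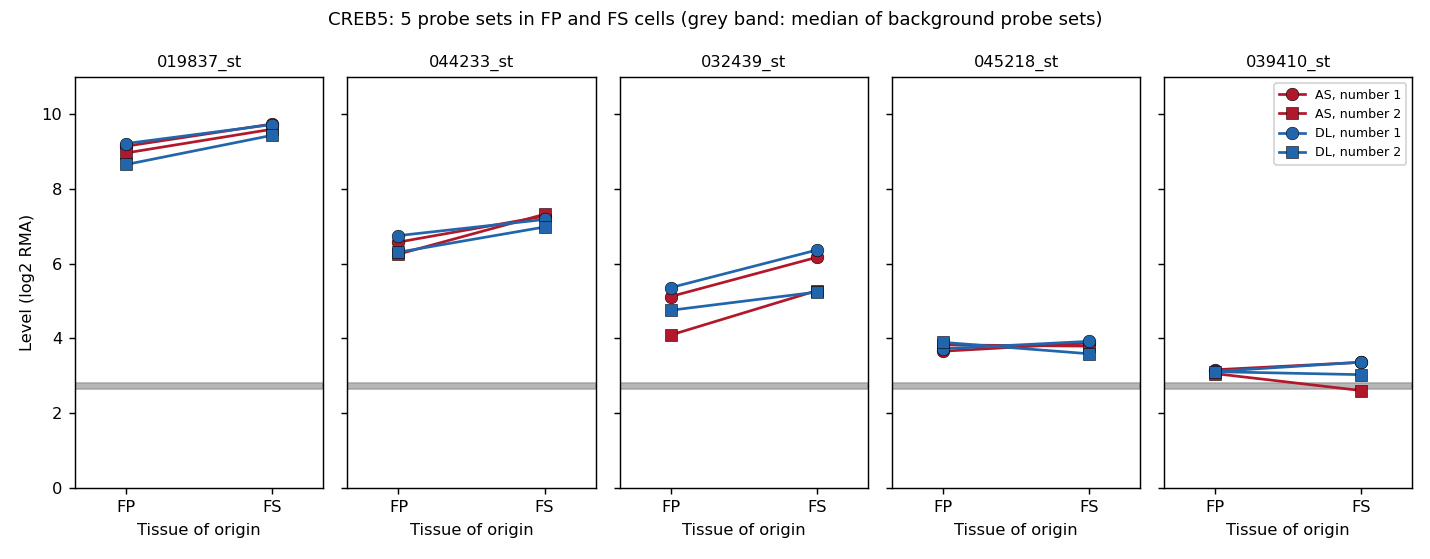
Level of the 5 CREB5 probe sets (log2 RMA, vertical axis) in FP and FS cells, with a line joining the arrays of the same breed and number and the background median as a grey band. All 4 lines run upward to FS for the first 3 probe sets (FP minus FS -0.63, -0.72 and -0.93 on average), and they run in both directions for the 2 dim ones.

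Some other cell type markers also differed between the tissues, in a limma fit that called 0.264% of all probe sets. The 8 adipocyte genes listed were all measured and were summed on the linear scale. Their log2 sums were 8.86 to 9.09 in FP and 8.38 to 8.70 in FS. PPARG and LPL were called higher in FP, and 3 of the 8 with the block (0.987% of all probe sets). CIDEC and LEP had the opposite sign (-0.155 and -0.28, not called). None of the 8 was above the 95th percentile of the background on all 8 arrays, and LPL exceeded its median on 7. The sums of 8 chondrocyte genes were 9.61 to 9.97 in FP and 9.39 to 9.60 in FS, with SOX9 called higher in FP and HAPLN1 below the background median on all arrays. ACAN (aggrecan), the main proteoglycan of cartilage, differed the other way by -0.61 (adjusted p = 0.12 in limma) and was called lower in FP with the block, so that 1 chondrocyte gene was then called in each direction. Of 8 pericyte and smooth muscle genes the sums overlapped (12.43 to 12.91 in FP, 12.01 to 12.91 in FS). KCNJ8 was called higher in FP, and 2 of the 8 with the block. ABCC9 had the largest difference of this list (1.54, adjusted p = 0.18 in limma), and RGS5 was below the background median throughout. The 3 measured genes expected to be absent from such cells gave 6.84 to 6.97 in FP and 7.31 to 7.77 in FS. Of them CD34 was called lower in FP (-1.56). CD14 and PTPRC had the opposite sign (0.19 and 0.22, neither called). CD14 was above the background median on all 8 arrays, and PTPRC was below it on all arrays. The sums of the listed synovial fibroblast, macrophage and osteoclast, endothelial and skeletal muscle genes overlapped between the tissues, with no gene called in limma. The part of these markers in the CREB5 difference was not tested. The surface genes THY1, ENG, CD44 and ITGB1 were above the 95th percentile of the background on all 8 arrays in both tissues, and NT5E only above its median. These genes define mesenchymal stem cells by their surface.

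ALPL, the enzyme used as an early marker of osteoblast maturation, had 1 probe set, SNOWBALL_022575_st. It measured 4.40 and 5.03 in AS-FP, 4.22 and 4.77 in AS-FS, 4.72 and 4.60 in DL-FP, and 4.54 and 4.39 in DL-FS. FP exceeded FS in 4 of 4 pairs of the same breed and number, by 0.18 to 0.26, and the share of all probe sets with such pairs is not given here. The spread between the 2 arrays of an AS group was larger than these differences, 0.63 in AS-FP and 0.55 in AS-FS. The FP minus FS difference was 0.21 (95% interval -0.21 to 0.63, adjusted p = 0.9998 in limma), and the block did not bring it past the threshold (interval -0.18 to 0.60). AS and DL differed by 0.05 (-0.38 to 0.47).

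SPP1, the acidic matrix protein osteopontin, was the only matrix protein of the 8 genes to be called in any fit. Its brighter probe set, SNOWBALL_011710_s_st, measured 5.84 and 5.10 in AS-FP, 5.64 and 5.05 in AS-FS, 5.11 and 4.60 in DL-FP, and 5.28 and 4.82 in DL-FS. Number 1 was above number 2 in all 4 groups, by 0.46 to 0.74, and for that reason AS and DL overlapped over the 8 arrays. Within the same tissue and number AS was above DL in 4 of 4 pairs, by 0.23 to 0.72, and the share of all probe sets with such pairs is not given here. The AS minus DL difference was 0.45, or 1.37 times the DL signal (SE 0.23, 95% interval -0.06 to 0.97), and was not called (adjusted p = 0.64 in limma, 0.666% of all probe sets called, 0 of the 18). With the replicate number as a block the interval was 0.21 to 0.70 and the adjusted p 0.093, the 1 member called where 3.04% of all probe sets were. The call was lost without any 1 of the 8 arrays, with adjusted p-values of 0.15 to 0.27. Of the 5 cell cycle genes MKI67, TOP2A, CCNB1, CDK1 and AURKA, 3 were called higher in AS with the block and 0 without it. Their log2 sums overlapped, at 9.75 to 10.17 in AS and 8.88 to 10.06 in DL. The part of these genes in the SPP1 difference and in the other breed calls was not tested.

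The dimmer SPP1 probe set, SNOWBALL_001544_st, crossed the background median on 5 of 8 arrays. It gave 3.04 and 2.38 in AS-FP, 3.70 and 3.11 in AS-FS, 3.54 and 2.64 in DL-FP, and 3.14 and 2.11 in DL-FS. Number 1 was again above number 2 in each group, by 0.59 to 1.03. FP was below FS in AS by 0.65 and 0.72 and above FS in DL by 0.40 and 0.52, when arrays of the same number were compared. The breed dependence of this difference was -1.15 (95% interval -2.56 to 0.25) with an adjusted p of 1.0 in limma and of 0.55 with the block. Its AS minus DL difference was 0.20 (-0.50 to 0.90). The brighter SPP1 probe set had the opposite signs, FP above FS in AS by 0.19 and 0.04 and below it in DL by 0.17 and 0.22, so the 2 probe sets of the gene did not show the same pattern.

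IBSP, which binds hydroxyapatite and lies in one gene cluster with SPP1, in the order SPP1, MEPE, IBSP and DMP1, gave 3.84 and 3.41 in AS-FP, 3.96 and 3.87 in AS-FS, 4.04 and 4.07 in DL-FP, and 3.67 and 4.37 in DL-FS on SNOWBALL_001545_s_st. AS-FP was lowest, then AS-FS, then DL-FP, with no overlap between these 3. DL-FS spanned the range of both AS-FS and DL-FP and overlapped AS-FP as well. The share of all probe sets with groups apart in this way is not given here. AS minus DL was -0.27 (95% interval -0.69 to 0.15) and FP minus FS -0.13 (-0.55 to 0.30), neither called. The other IBSP probe set, SNOWBALL_011855_st, was at 2.43 to 3.08 and above the background median on 4 of 8 arrays. Its cluster neighbours DMP1 (3.91 to 4.65) and MEPE (2.75 to 3.42), both typical of osteocytes, were likewise within the range of the background.

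BGLAP, the vitamin K-dependent osteocalcin of mature osteoblasts, measured 5.02 and 5.09 in AS-FP, 4.96 and 5.30 in AS-FS, 5.37 and 5.15 in DL-FP, and 4.69 and 5.05 in DL-FS on its 1 probe set, SNOWBALL_005926_st. In DL both FP arrays were above both FS arrays, by 0.39 on average (95% interval -0.06 to 0.84, not called in limma), and in AS the tissues overlapped. How many of all probe sets were separated like this in DL is not given here. Averaged over breeds FP minus FS was 0.16 (-0.16 to 0.47), and AS minus DL was 0.02 (-0.29 to 0.34).

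TNFRSF11B, the decoy receptor, gave 4.35 and 3.83 in AS-FP, 3.69 and 4.17 in AS-FS, 4.20 and 3.95 in DL-FP, and 4.15 and 4.40 in DL-FS on SNOWBALL_005586_s_st. Neither tissue nor breed separated these arrays. FP minus FS was -0.02 (95% interval -0.43 to 0.39) and AS minus DL -0.17 (-0.58 to 0.24). Its ligand TNFSF11 (RANK ligand) was at 2.70 to 3.44, above the background median on 7 of 8 arrays. A further TNFRSF11B probe set, SNOWBALL_035624_st, stayed at 1.14 to 1.55, below that median on all arrays.

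Over the 18 probe sets, the median difference was -0.03 for FP minus FS and 0.00 for AS minus DL, beside medians over all probe sets of 0.00 and 0.01. In FP minus FS 7 were positive and 11 negative, and in AS minus DL 9 and 9. Outside CREB5, the 95% intervals of FP minus FS lay within -0.81 and 0.63. An SD over the 8 arrays above 0.25, the limit of the study's filter, was met by 10 of the 18 (55.6%) and by 32% of all probe sets. The 5 with the largest SD were those of SPP1 and the first 3 of CREB5, at 0.39 to 0.73. Breed differences within FP or within FS were called for 0 of the 18, against 0.212% and 0.0943% of all probe sets, and for 0 with the block, against 0.826% and 1.07%.

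**Figure D3:**
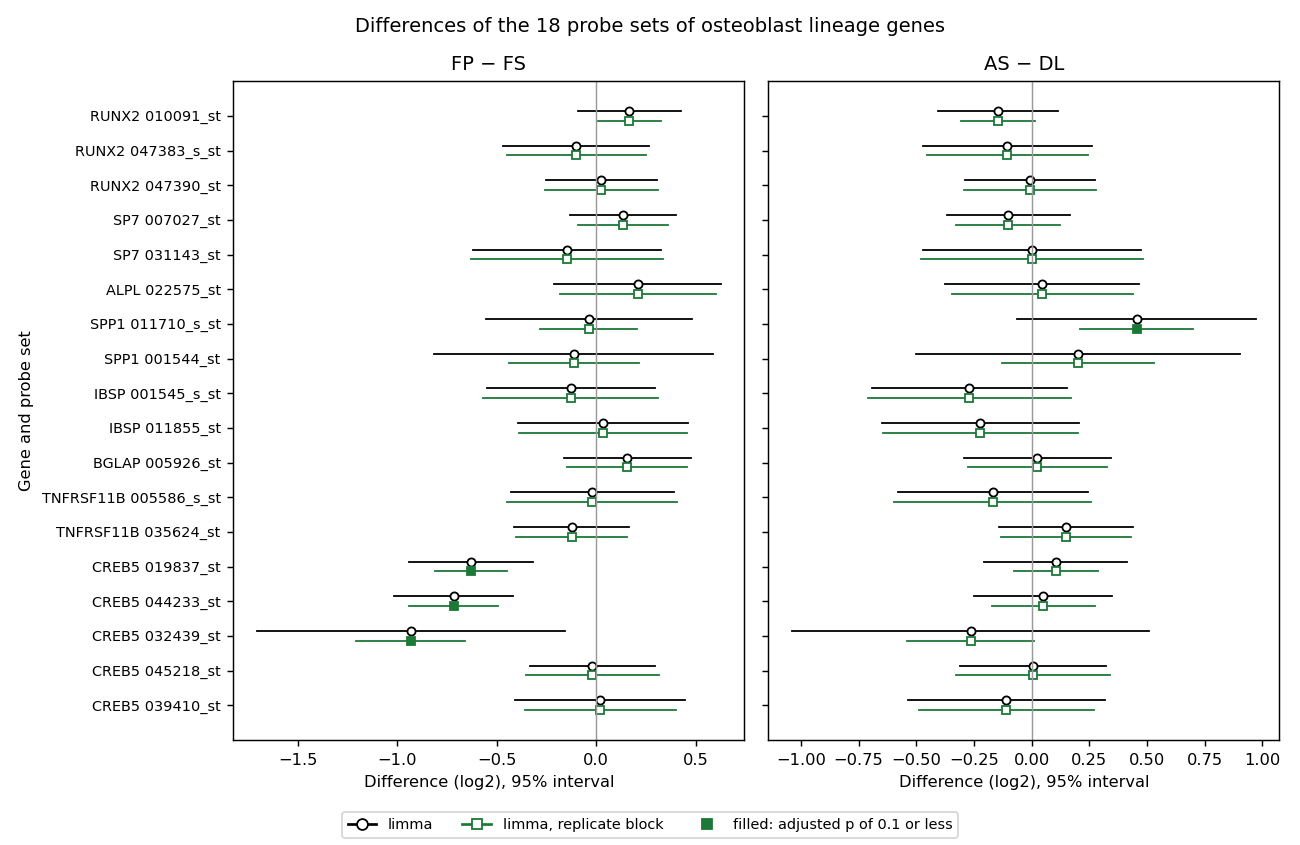
Difference of each of the 18 probe sets in log2 units (horizontal axes), FP minus FS on the left and AS minus DL on the right, with 95% intervals from limma (black) and from limma with the replicate number as a block (green). Filled squares passed an adjusted p of 0.1, which 3 CREB5 probe sets did in FP minus FS and 1 SPP1 probe set in AS minus DL, only with the block.

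The pattern of CREB5 over the 8 arrays was most like that of FBLN5 (Pearson r = 0.94), an elastic fibre protein, RARB (0.93), a retinoic acid receptor, and MID1 (0.93), a microtubule-associated ubiquitin ligase. BIN1 and EFEMP1 followed, both at 0.91. These were the highest of 818 probe sets that had a named gene, were above the background and varied between arrays. Because they were picked for likeness to CREB5, it is no separate result that each of the 5 averaged lower in FP than in FS. The means were 8.49 in FP and 9.71 in FS for EFEMP1, and 7.34 in FP and 8.15 in FS for RARB. For RUNX2 the most similar were RAB31 (0.92), PLEKHA5 (0.92), C1S (0.92), LRP6 (0.91), a Wnt co-receptor, and SNED1 (0.91). The 8 arrays come from 4 groups and share any effect of tissue, breed and replicate number, so these values are descriptions of likeness only.

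Genes around the lineage were read from lists of 118 genes, of which 105 were measured and represented by their brightest probe set. The shares set beside these genes are over all probe sets, also dim ones and ones without a symbol, so they are not strictly comparable. Of the 105 genes 4 were called in FP minus FS (0.264% of all probe sets called). SOX9, the cartilage factor that restrains RUNX2, was higher in FP by 0.63 (SE 0.10), with 8.70, 8.48, 8.74 and 8.74 in FP and 7.82, 7.93, 8.35 and 8.06 in FS, the AS arrays first. BMPR1B, a receptor for bone morphogenetic proteins, was higher by 0.95 (SE 0.15), and FGFR2, a fibroblast growth factor receptor of osteoprogenitors, by 0.88 (SE 0.14). OGN (osteoglycin), a small leucine-rich proteoglycan of bone and fibrous tissue, was lower by 0.73 (SE 0.11), with a mean of 9.94 ± 0.12 over the FP arrays and of 10.67 ± 0.34 over the FS arrays (SD, n = 4 each). Their adjusted p-values in limma were 0.079 for SOX9, 0.081 for BMPR1B, 0.079 for FGFR2 and 0.062 for OGN. With the block 8 of the 105 were called (0.987% of all probe sets), adding HEY1, ANKH, which carries pyrophosphate out of cells, and VDR, the vitamin D receptor, as higher, and ASPN as lower. Within a breed 0 were called without the block. With it 5 of the 105 were called in AS, where 0.495% of all probe sets were (SOX9, HEY1, VDR and GHR higher, CSF1 lower), and 4 in DL, where 0.434% were (MGP, OGN, ASPN and POSTN, all lower in FP). The other breed had the opposite sign for GHR (-0.18 in DL), CSF1 (0.11 in DL) and MGP (0.73 in AS), none of them called there.

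Between breeds 1 of the 105 genes was called, a share near the 0.666% of all probe sets. It was PDPN (podoplanin), which marks early osteocytes and also synovial lining fibroblasts. It measured 5.53 and 5.58 in AS-FP, 5.19 and 5.52 in AS-FS, 7.12 and 7.44 in DL-FP, and 7.85 and 8.02 in DL-FS, a difference of -2.15 (SE 0.12, adjusted p = 0.00059 in limma). All AS arrays were below all DL arrays, and the share of all probe sets with breeds so apart is not given here. PDPN was called within FP (-1.72, 0.212% of all probe sets called) and within FS (-2.58, 0.0943% called) as well. MGP, a matrix protein that inhibits mineralization, was called between breeds in FS, at 6.25 ± 0.04 in AS-FS and 7.51 ± 0.24 in DL-FS (SD, n = 2 each, difference -1.27). In FP its difference had the opposite sign (AS minus DL 0.54, not called), and FP minus FS was 0.73 in AS and -1.08 in DL. This breed dependence of MGP was 1.81 (SE 0.22) and did not pass the threshold, with an adjusted p of 0.76 in limma and of 0.19 with the block. With the block 5 of the 105 were called between breeds, where 3.04% of all probe sets were, so that this share too was near that of the whole array. Of these 5, CD44, the hyaluronan receptor that also binds osteopontin, was higher in AS by 0.29, and JUNB, POSTN, TNFSF10 and PDPN were lower. In FP alone the block called 2 of the 105, beside 0.826% of all probe sets (PDPN lower and GHR higher), and in FS alone 6, beside 1.07% (CSF1 higher, PDPN, MGP, OMD, POSTN and TNFSF10 lower). Besides MGP, the other tissue had the opposite sign for GHR (-0.18 in FS), CSF1 (-0.27 in FP) and OMD (0.03 in FP), none of them called there.

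Some genes for abundant bone matrix proteins, COL1A1, COL1A2 and SPARC, lay at an even RNA level, whereas OGN, ASPN and POSTN of the same list did not, as given above. COL1A1 lay at 12.28 to 12.47, COL1A2 at 13.02 to 13.25 and SPARC (osteonectin) at 12.67 to 12.82 on the 8 arrays, all above the 95th percentile of the background and none called in any comparison. These genes are shared with fibroblasts and do not mark osteoblasts alone. In the CREB and ATF family 17 of 20 listed genes were measured and none was called in any comparison, with or without the block.

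**Figure D4:**
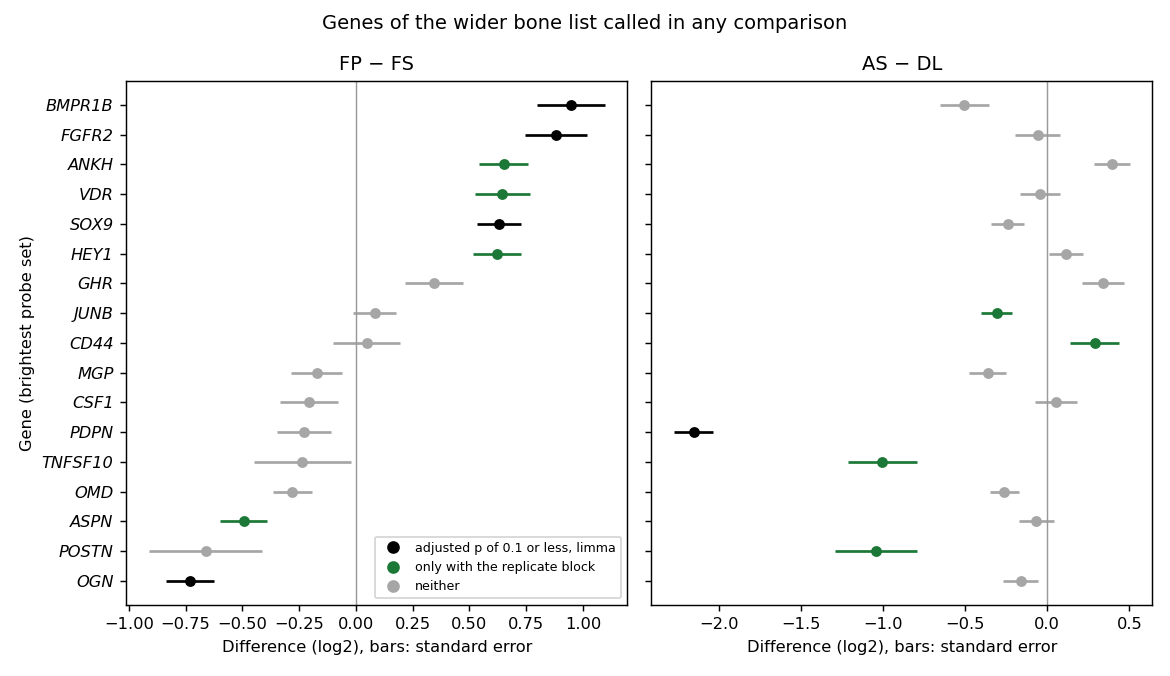
Genes of the bone lists called in any comparison, by their brightest probe set, with the difference in log2 units and its standard error (horizontal axes), FP minus FS on the left and AS minus DL on the right. Black points were called by limma in the comparison shown (SOX9, BMPR1B, FGFR2 and OGN between tissues, PDPN between breeds), green points only with the replicate block, and grey points in neither.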

How the data were processed

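Log2 values deposited by the authors were used as given: arrays were scanned with GCOS 1.1.1 (submitters' processing notes), and probes were summarised by RMA in Expression Console. The table of 47845 probe sets was not filtered, whereas the methods further filtered by detection above background and SD. Here 123 control probe sets were left out and 47722 tested on 8 arrays, whose medians were 4.58 to 4.64. The platform table gives 1 symbol for 26426 of them and none for 21296; 429 symbols were updated. The number of arrays limits the precision.

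Group means were fitted with limma 3.58.1 in R 4.3.3 (trended variances, residual degrees of freedom 4), with Benjamini-Hochberg adjustment over all probe sets and an adjusted p of 0.1 or less as threshold, the limit of the methods. The script was tested on simulated data. Deviations of same-numbered arrays correlated in 6 of 6 pairs of groups (Pearson r 0.14 to 0.22), so the number was also fitted as a block. Other alternatives were variance models, filters, renormalization and leaving out arrays. Values on all arrays are given for the brightest probe set of each member and for members called in any fit; from the bone lists, called genes are named, up to 4 a list by adjusted p (OMD, a further matrix gene, was named after its values were seen). Members and lists were chosen with earlier results of these data known.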

Additional observations from a re-analysis of the deposited data

How the results depend on the processing

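No member was called in any of the 7 comparisons by limma, and the count was again 0 without the variance trend, in a plain linear model, with an SD filter, which left 10 of the 18 members, with a background filter, which left 2, after equalising array medians, after quantile normalization, without any 1 array, and, for the 4 comparisons within a breed or tissue, with only their 4 arrays. It says nothing of stability where the fit called 0 or 1 probe sets of the whole array. These were the plain linear model throughout, the breed dependence in every fit, FP minus FS in AS without an AS array, FP minus FS in DL without a DL array or with only its 4 arrays, and AS minus DL in FP without number 2 of DL-FP. The replicate block changed them to 1 in AS minus DL, 3 in FP minus FS, 2 in FP minus FS in AS and 1 in FP minus FS in DL. In the added fits with the block and without 1 array, chosen after seeing the data, AS minus DL called 0 members each time and FP minus FS 2 or 3. The genes called in the bone lists became, with the block, 5 in AS minus DL, 8 in FP minus FS, 5 in AS, 4 in DL, 2 for breed in FP and 6 for breed in FS. With the mean of all probe sets of a gene they became 2 in AS minus DL, 1 in AS, 3 in DL and 1 in the breed dependence. The share of all genes called in that fit is not given here, so these counts are not read as a result about the lists. Above background were 12 probe sets by its median in place of 2 by its 95th percentile. The cause was not tested. Signs of small differences that were not called turned when 1 array was left out. For AS minus DL the ranges were -0.11 to 0.20 for ALPL, -0.066 to 0.12 for BGLAP, and -0.036 to 0.24, -0.060 to 0.16 and -0.55 to 0.017 for the first, the second and the third probe set of CREB5. For FP minus FS they were -0.30 to 0.048 for IBSP, -0.22 to 0.15 for SPP1 and -0.15 to 0.11 for TNFRSF11B, and for the breed dependence -0.25 to 0.31 and -0.93 to 0.19 for the first and the third probe set of CREB5. Among 10 probe sets of 8 genes, no array stood apart from the others of its breed or tissue. Scanner files were not used here, so no other background correction was run.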
